A study of Arabidopsis thaliana with 30 samples.

Results

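The genes described here encode the main Arabidopsis RNA decay routes that lie outside the nuclear exosome and its cofactors. They were chosen by gene identifier and comprise the 5′-3′ exoribonucleases XRN2, XRN3 and XRN4, the decapping genes DCP1, DCP2 and VCS, the SKI complex genes SKI2, SKI3 and VIP3 (SKI8), and the 3′-5′ exoribonuclease gene SOV. All 10 genes were found among the 32832 genes of the 20 °C experiment and among the 34262 genes of the 22 °C experiment, where they were represented by 19 of 55522 transcripts. The comparison asked whether the transcript levels of these genes changed with loss of HEN2, with the *se-2* allele of SERRATE (SE) or with both.

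HEN2 is an RNA helicase that hands nucleoplasmic transcripts to the nuclear exosome as part of the NEXT complex, and SE is a zinc-finger protein with roles in miRNA biogenesis and in RNA degradation. Outside this pathway, XRN2 and XRN3 degrade uncapped RNA from the 5′ end in the nucleus, and XRN4 does so in the cytoplasm. XRN4 acts on RNAs whose cap was removed by DCP2, the decapping enzyme, with the help of DCP1 and the scaffold VARICOSE (VCS). In the 3′-5′ direction, the SKI complex feeds cytoplasmic RNA to the exosome. SOV is an RNase II-type enzyme that degrades cytoplasmic RNA without the exosome, and the Columbia accession is known to carry a weak sov allele.

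Rosette leaves of 4 week-old plants of the Columbia accession were used, grown in a cycle of 16 h light and 8 h dark. At 20 °C, 4 genotypes were compared, namely *hen2-2* (the T-DNA insertion line GK774_H07), *se-2*, a double mutant that carries both alleles (*se-2 hen2-2*), and WT. The paper describes *se-2* as giving an SE protein truncated at its C-terminus, which is not a complete loss of SE. At 22 °C, *hen2-2* was compared with WT. Each genotype had 3 biological replicates in each experiment. The labels name the tissue as aerial.

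Library totals were 47.7 to 156.6 M counts at 20 °C and 62.6 to 105.5 M estimated reads at 22 °C (M, mega), of which 51.5 to 72.8% and 78.7 to 82.7% fell on organelle genes. Nuclear genes therefore received 21.5 to 46.3 M and 12.04 to 22.4 M counts. At 20 °C, replicate 1 of each genotype and replicate 2 of *hen2-2* and WT had over 100 M counts, and the other 6 libraries had 47.7 to 58.1 M. HEN2 was at 2.30, 2.58 and 2.94 CPM (counts per M counts, scaled between libraries) in *hen2-2* and at 2.29, 2.45 and 4.36 CPM in the double mutant, against 6.28, 8.11 and 6.61 CPM in WT. SE was at 2.71, 2.45 and 3.07 CPM in *se-2* and at 2.61, 3.02 and 3.26 CPM in the double mutant, against 5.59, 5.92 and 6.84 CPM in WT. Both genes followed the labels. Summed markers of leaf tissue (5 genes) took 3130 to 4096 RPM (the same without that scaling) in *hen2-2*, 3088 to 3682 in *se-2* and 2069 to 2721 in the double mutant, against 3262 to 4319 in WT. All 5 had fold changes below WT in the double mutant (median log2 fold change -0.60), where 1 was called lower by edgeR (GLDP1, named after its values were seen, adjusted p = 0.046). At 22 °C these markers took 2330 to 4020 RPM in *hen2-2*, against 2132 to 3825 in WT. Summed flower markers (5 genes) took at most 1.66 RPM in any library and summed root markers (5 genes) at most 0.0833. Flower markers at 22 °C ran from 0.537 to 0.876 RPM in *hen2-2* and from 0.892 to 1.66 in WT.

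All the decay genes but DCP1 were moderately expressed. At 22 °C, where levels were given in TPM (transcripts per M, which corrects for transcript length), the means over the 6 libraries were 2.00 for XRN2, 1.88 for XRN3, 1.62 for VCS, 1.58 for VIP3, 1.41 for XRN4, 1.25 for SOV, 1.24 for DCP2, 0.815 for SKI3, 0.768 for SKI2 and 0.215 for DCP1. Among 27088 nuclear genes XRN2 stood at percentile 81.8 and SKI2 at percentile 62.0, whereas DCP1 stood at percentile 39.3. In WT at 22 °C, where the order by TPM was XRN2, XRN3, VCS, VIP3, XRN4, SOV, DCP2, SKI3, SKI2 and DCP1, each gene overlapped the next one in its replicates except that DCP2 lay above SKI3 and SKI2 above DCP1. In *hen2-2* VIP3 and VCS, and DCP2 and SOV, stood in the opposite order, with overlap within both pairs. At 20 °C, levels per length (CPM per kb of exon sequence) in WT were 4.47 ± 0.42 for XRN2, 3.09 ± 0.31 for VIP3, 2.42 ± 0.31 for XRN3, 2.17 ± 0.59 for SOV, 2.16 ± 0.11 for XRN4, 1.79 ± 0.18 for DCP2, 1.65 ± 0.20 for VCS, 1.52 ± 0.24 for SKI3, 1.29 ± 0.17 for SKI2 and 0.238 ± 0.085 for DCP1 (SD, n = 3). Neighbours in this order overlapped except XRN2 with VIP3, VIP3 with XRN3, XRN4 with DCP2 and SKI2 with DCP1. XRN2 was the highest and DCP1 the lowest of the 10 in all 4 genotypes at 20 °C, without overlap with the nearest gene. The experiments were quantified with different programs, so levels were compared only within each of them.

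**Figure D1:**
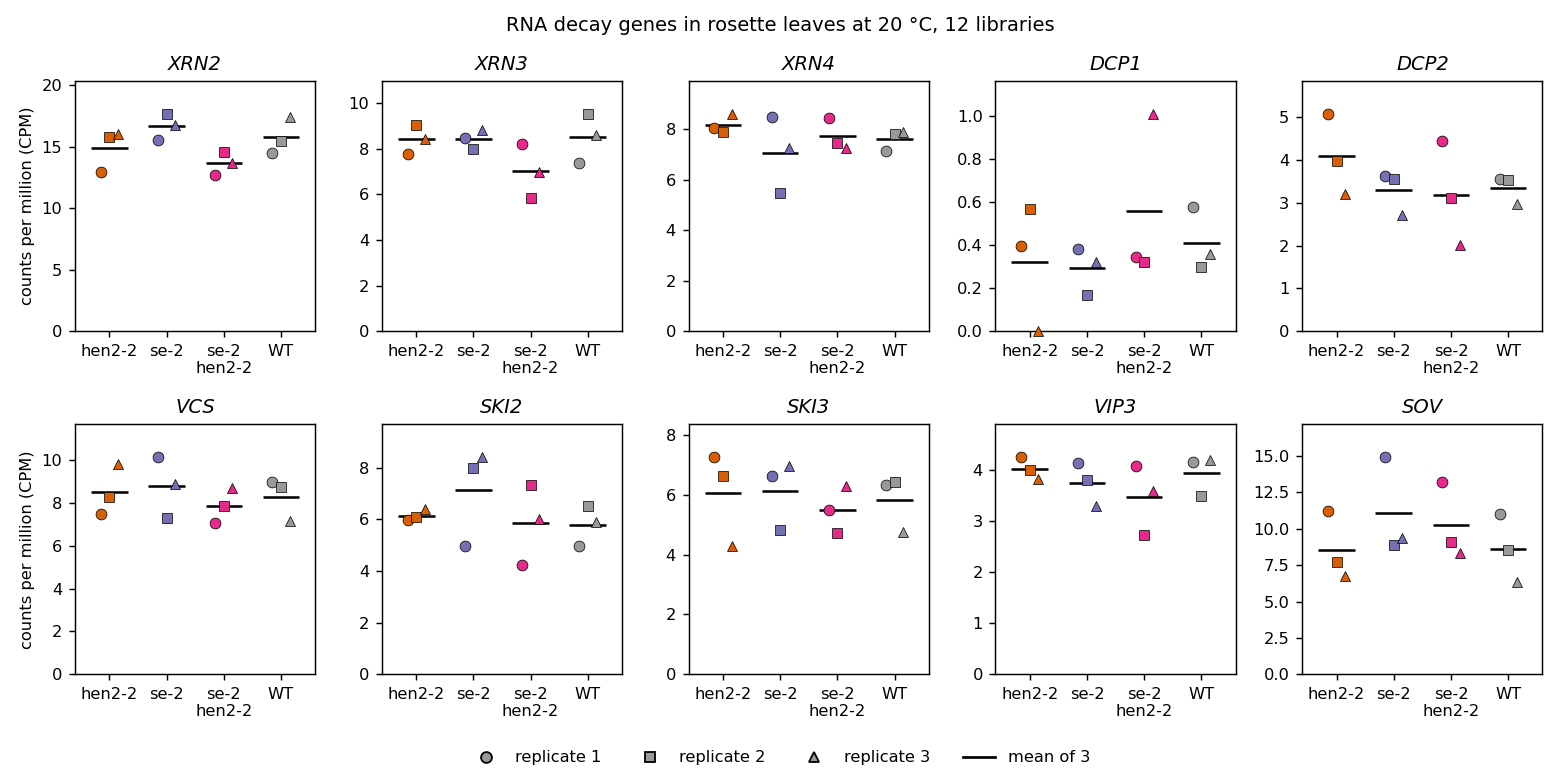
Levels of the 10 decay genes in the 12 libraries of the 20 °C experiment, in CPM (y axis, starting at 0) by genotype (x axis). Symbols mark the replicates and bars the mean of 3; apart from XRN4 in *hen2-2*, every mutant overlapped WT, and DCP1 ranged between 0 and 1.01 CPM.

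None of the 10 genes changed in any mutant at 20 °C by edgeR's quasi-likelihood test at an adjusted p below 0.05. Over all 19454 genes tested, 0.298% were called higher and 0.0103% lower in *hen2-2* than in WT. For *se-2* these shares were 0.267% and 0.0565%, and for the double mutant 1.71% and 0.668%. A count of 0 among 10 genes is near these shares. None of the 10 had an unadjusted p below 0.05 in these comparisons either, where 5.27%, 7.09% and 14.6% of all genes did. By DESeq2 none was called in any of them. The intervals of the fold changes were narrow. In *hen2-2* 1 of the 10 genes was higher than WT without overlap (7.06% of all genes) and 0 lower (5.81%). In *se-2* 0 were higher (6.36%) and 0 lower (6.50%), and in the double mutant 0 were higher (11.2%) and 0 lower (9.82%). Leaving out DCP1, the 9 other genes had fitted ratios to WT of 0.946 to 1.22 for *hen2-2*, 0.931 to 1.29 for *se-2* and 0.826 to 1.19 for the double mutant. The 95% intervals lay within a 2-fold change in either direction for 9 of the 10 genes in each of these comparisons, whereas this held for 45.7%, 43.4% and 38.7% of all genes tested. These shares were not matched for level, and the 9 genes stood at percentiles 60.7 to 91.0 of the nuclear genes tested. The highest upper bound among the 9 genes was a ratio of 1.99, for SOV in *se-2*, and the lowest lower bound a ratio of 0.624, for DCP2 in the double mutant. The 3 comparisons with WT share the WT libraries.

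**Figure D2:**
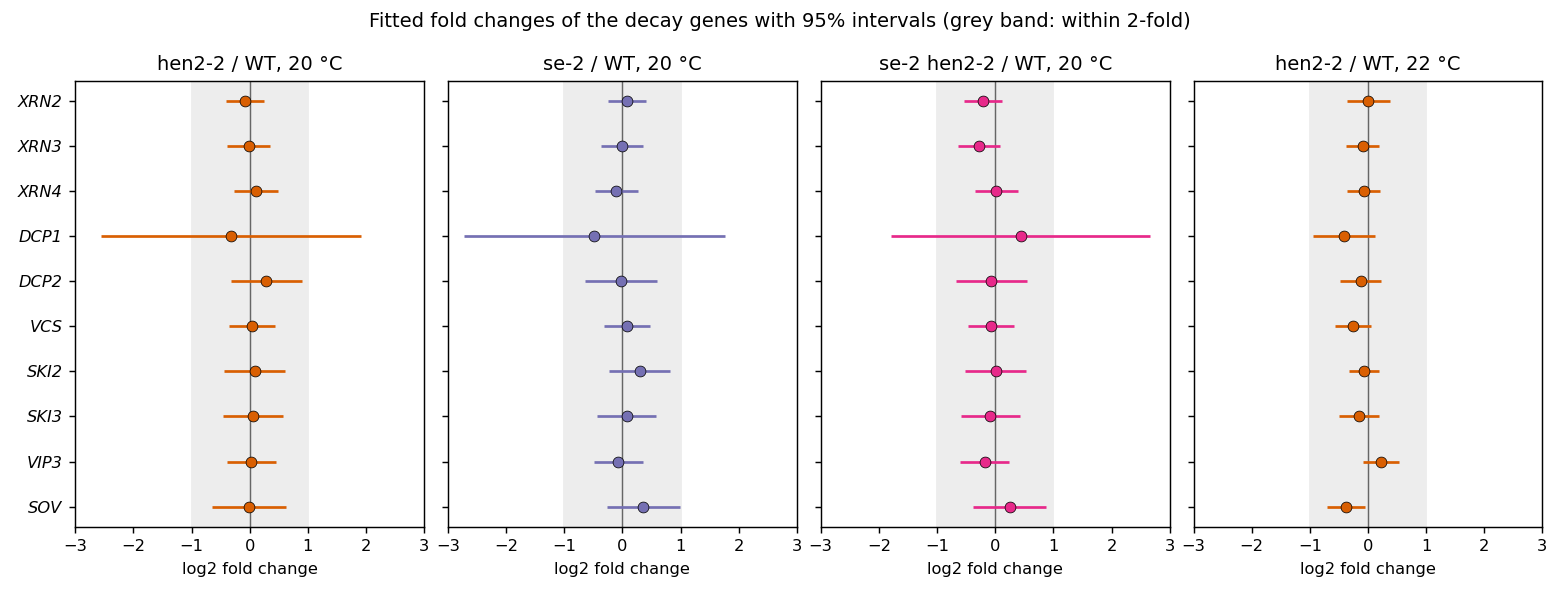
Fitted log2 fold changes (x axis, mutant over WT) of the 10 genes (rows) with their 95% intervals (lines), for 3 comparisons at 20 °C and 1 at 22 °C; the grey band marks changes within 2-fold. All intervals outside the DCP1 row stay within the band, and only that of SOV at 22 °C leaves out 0.

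Nuclear XRN2 was at 12.9, 15.8 and 16.0 CPM in *hen2-2*, at 15.5, 17.7 and 16.7 CPM in *se-2* and at 12.7, 14.6 and 13.6 CPM in the double mutant, against 14.5, 15.5 and 17.4 CPM in WT. The double mutant reached only the lower end of the WT range, and its 3 libraries all lay below the 3 *se-2* libraries. The log2 fold change of the double mutant over *se-2* was -0.29 (standard error 0.15), with an edgeR p of 0.077 and an adjusted p of 0.53. In that comparison 7.27% of all genes were lower without overlap. Relative to WT the double mutant had a log2 ratio of -0.21 (standard error 0.15, edgeR adjusted p = 0.58).

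XRN3, the second nuclear enzyme, was at 7.77, 9.05 and 8.41 CPM in *hen2-2*, at 8.49, 8.00 and 8.83 CPM in *se-2* and at 8.22, 5.85 and 6.99 CPM in the double mutant, against 7.40, 9.54 and 8.59 CPM in WT. It had the most negative value of the 9 genes in the double mutant, at a log2 ratio of -0.28 (standard error 0.17, edgeR adjusted p = 0.51), but replicate 1 of the double mutant lay within the WT range. XRN2 exceeded XRN3 per length in each of the 12 libraries, by a ratio of 1.76 ± 0.12 in *hen2-2*, 1.97 ± 0.20 in *se-2*, 1.99 ± 0.47 in the double mutant and 1.86 ± 0.21 in WT (SD, n = 3). These ratios overlapped between the 4 genotypes. At 22 °C, the ratio was 1.10 ± 0.12 in *hen2-2* and 1.03 ± 0.07 in WT on the TPM scale.

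The cytoplasmic enzyme XRN4 was at 8.04, 7.90 and 8.62 CPM in *hen2-2*, at 8.49, 5.48 and 7.24 CPM in *se-2* and at 8.45, 7.44 and 7.26 CPM in the double mutant, against 7.14, 7.80 and 7.88 CPM in WT. The 3 *hen2-2* libraries all lay above the WT libraries, a pattern shared by 7.06% of all genes. The distance was small, with a log2 fold change of 0.11 (95% interval -0.27 to 0.48, edgeR adjusted p = 1). XRN4 did not stand apart in *hen2-2* at 22 °C, where it was at 8.92, 8.85 and 8.24 CPM in *hen2-2* and at 9.40, 9.70 and 8.34 CPM in WT.

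Among the decapping genes, DCP2, the catalytic subunit, was at 5.08, 3.98 and 3.21 CPM in *hen2-2*, at 3.62, 3.56 and 2.71 CPM in *se-2* and at 4.44, 3.11 and 2.02 CPM in the double mutant, against 3.55, 3.54 and 2.96 CPM in WT. Its log2 ratios to WT were 0.29 in *hen2-2*, -0.02 in *se-2* and -0.07 in the double mutant (standard errors 0.28 each), and all groups overlapped. VCS was at 7.48, 8.25 and 9.81 CPM in *hen2-2*, at 10.13, 7.28 and 8.86 CPM in *se-2* and at 7.04, 7.85 and 8.69 CPM in the double mutant, against 8.98, 8.71 and 7.13 CPM in WT. The genotypes again overlapped, with log2 ratios to WT of -0.08 to 0.08. VCR, the relative of VCS that ends 187 bp before VCS starts, was at 2.31, 2.53 and 1.72 CPM in *hen2-2*, at 3.43, 1.24 and 1.90 CPM in *se-2* and at 2.70, 1.42 and 3.38 CPM in the double mutant, against 2.85, 3.78 and 2.95 CPM in WT. All 3 *hen2-2* libraries lay below the WT libraries (5.81% of all genes), while *se-2* and the double mutant overlapped WT. The sequences of these relatives are alike, so reads may have been divided between them in counting. No fold change of VCR over WT passed the test (log2 -0.54 for *hen2-2*, -0.54 for *se-2* and -0.35 for the double mutant, edgeR adjusted p of 1, 0.91 and 0.76).

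DCP1, the partner of DCP2, was low and uneven between replicates at 20 °C, and could not be compared there. The *hen2-2* libraries held 53, 87 and 0 counts, the *se-2* libraries 53, 11 and 21 counts and the double mutant libraries 43, 15 and 57 counts, against 58, 39 and 22 counts in WT libraries. The 95% interval of its log2 fold change in *hen2-2* ran from -2.55 to 1.91, so that a change of several fold was not detectable with these replicates. At 22 °C, DCP1 had 59, 57 and 48 estimated reads in *hen2-2* and 68, 42 and 55 in WT, at 0.59, 0.65 and 0.44 CPM against 0.77, 0.64 and 0.82 CPM. Its log2 fold change was -0.41 (95% interval -0.95 to 0.12, edgeR adjusted p = 0.51).

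SKI2, the helicase of the SKI complex, was at 5.96, 6.08 and 6.40 CPM in *hen2-2*, at 4.97, 7.97 and 8.42 CPM in *se-2* and at 4.23, 7.32 and 6.02 CPM in the double mutant, against 4.97, 6.51 and 5.91 CPM in WT. Values within *se-2* and within the double mutant differed more than the means of the genotypes. SKI3, the tetratricopeptide scaffold of the complex, was at 7.26, 6.63 and 4.30 CPM in *hen2-2*, at 6.61, 4.83 and 6.95 CPM in *se-2* and at 5.50, 4.72 and 6.29 CPM in the double mutant, against 6.31, 6.43 and 4.75 CPM in WT. Both genes overlapped WT in all mutants, and their log2 fold changes lay between -0.08 and 0.29 with standard errors of 0.23 to 0.24. VIP3, a WD-repeat protein that is also found in the PAF1 transcription complex, was at 4.25, 4.00 and 3.82 CPM in *hen2-2*, at 4.13, 3.81 and 3.29 CPM in *se-2* and at 4.08, 2.72 and 3.59 CPM in the double mutant, against 4.15, 3.49 and 4.20 CPM in WT. Its log2 fold changes were 0.03, -0.07 and -0.18 (standard errors 0.19 each). VIP3 shares 701 bp with genes on the opposite strand and SKI2 shares 91 bp with one. The libraries were stranded, but whether strand was used in counting is not given in the sources used here, which leaves reads in these stretches uncertain.

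SOV was at 11.2, 7.71 and 6.75 CPM in *hen2-2*, at 14.9, 8.89 and 9.38 CPM in *se-2* and at 13.2, 9.06 and 8.36 CPM in the double mutant, against 10.999, 8.50 and 6.33 CPM in WT. The levels differed more between the replicates than between the genotypes, and replicate 1 was the highest in each of the 4. The log2 ratios to WT were -0.01 in *hen2-2*, 0.36 in *se-2* and 0.25 in the double mutant (standard errors 0.29 each, edgeR adjusted p of 1, 0.95 and 0.77).

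The difference between replicate 1 and the other replicates was tested across all genes with genotype in the model, after the levels of SOV and SKI2 had been seen. SOV was higher in replicate 1, at a log2 ratio of 0.63 (standard error 0.10, edgeR adjusted p = 0.00075), and was the highest there in 4 of 4 genotypes. SKI2 was lower in replicate 1, at a log2 ratio of -0.43 (standard error 0.13, edgeR adjusted p = 0.033), and was the lowest there in 4 of 4 genotypes. DCP2 (log2 0.41, edgeR adjusted p = 0.12) was also highest in replicate 1 of all 4 genotypes and XRN2 (log2 -0.19, edgeR adjusted p = 0.15) lowest, without passing the test. Calls of this kind were common, as 17.6% of all 19454 genes passed (9.29% higher and 8.32% lower), so that 2 of 10 is near the share of all genes. Replicate 1 had over 100 M counts in every genotype, and the part of depth in this difference was not tested.

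**Figure D3:**
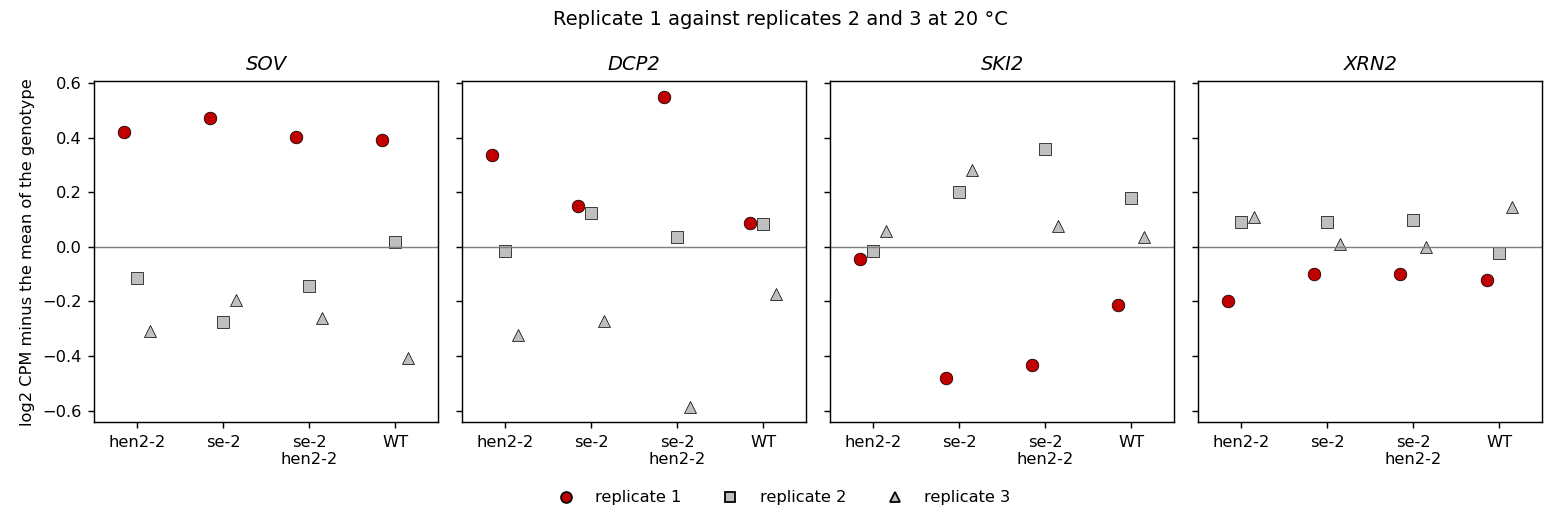
Log2 CPM minus the mean of the genotype (y axis) for SOV, DCP2, SKI2 and XRN2 in the 4 genotypes at 20 °C (x axis), with replicate 1 in red and replicates 2 and 3 in grey. Replicate 1 is the highest of 3 for SOV and DCP2 and the lowest of 3 for SKI2 and XRN2 in each of the 4 genotypes.

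The spread within genotypes at 20 °C was set beside that of genes of like level. The pooled SD of log2 CPM was 0.13 for XRN2, 0.17 for XRN3, 0.18 for XRN4, 0.19 for VIP3 and 0.20 for VCS, against medians of 0.24, 0.27, 0.27, 0.33 and 0.26 for genes of like level. These 5 genes thus varied less than is usual at their level. SOV stood out in the other direction, with an SD of 0.39 against 0.25 for genes of like level. This SD includes the difference between replicate 1 and the other replicates. SKI2 (0.31), SKI3 (0.29) and DCP2 (0.36) were close to genes of like level (0.28, 0.28 and 0.35). At 22 °C the SD was 0.14 for SOV and 0.04 for SKI2, below that of genes of like level (0.19 and 0.20).

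Loss of HEN2 in the *se-2* background and the *se-2* allele in the *hen2-2* background gave no call either. In the double mutant relative to *se-2*, 0.725% of all genes were called higher and 0.159% lower, and 0 members were higher (8.55%) and 1, XRN2, lower (7.27%) without overlap. The 9 genes without DCP1 had ratios of 0.820 to 1.09. In the double mutant relative to *hen2-2*, 0.380% and 0.149% were called, 0 members were higher (7.96%) or lower (7.86%) without overlap, and the ratios were 0.781 to 1.20. In each of these comparisons 2 of the 10 genes had a log2 fold change above 0, against 50.8% of all genes in both, with median log2 fold changes of -0.14 and -0.12 against 0.01 for all genes in both. These counts share the double mutant libraries. None of the 10 genes had an unadjusted edgeR p below 0.05 (10.9% of all genes did relative to *se-2* and 10.1% relative to *hen2-2*), by DESeq2 none was called, and the interaction of the mutations was not called for any of them either (0.0154% of all genes were, and 5.6% had an unadjusted p below 0.05).

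At 22 °C, SOV had the lowest p of the 10 genes between *hen2-2* and WT. It was at 8.83, 8.35 and 7.49 CPM in *hen2-2*, against 11.8, 9.47 and 10.9 CPM in WT, which is 1.14, 0.961 and 0.846 TPM against 1.94, 1.31 and 1.31 TPM. The groups did not overlap on either scale. The log2 fold change was -0.38 (95% interval -0.71 to -0.06) with an edgeR p of 0.027 (13.1% of all genes were below 0.05) and an adjusted p of 0.28, and it therefore did not pass in the fit without the replicate number. With the replicate number as a block the log2 ratio was -0.38 (standard error 0.096) and the edgeR adjusted p was 0.049, in a fit that called 5.19% of all genes lower and 7.08% higher, against 0.251% and 1.10% without the block. Same-numbered replicates of *hen2-2* and WT deviated together in this experiment. At 20 °C, SOV had a log2 fold change of -0.01 in *hen2-2* (95% interval -0.64 to 0.62), an interval that includes the value at 22 °C.

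**Figure D4:**
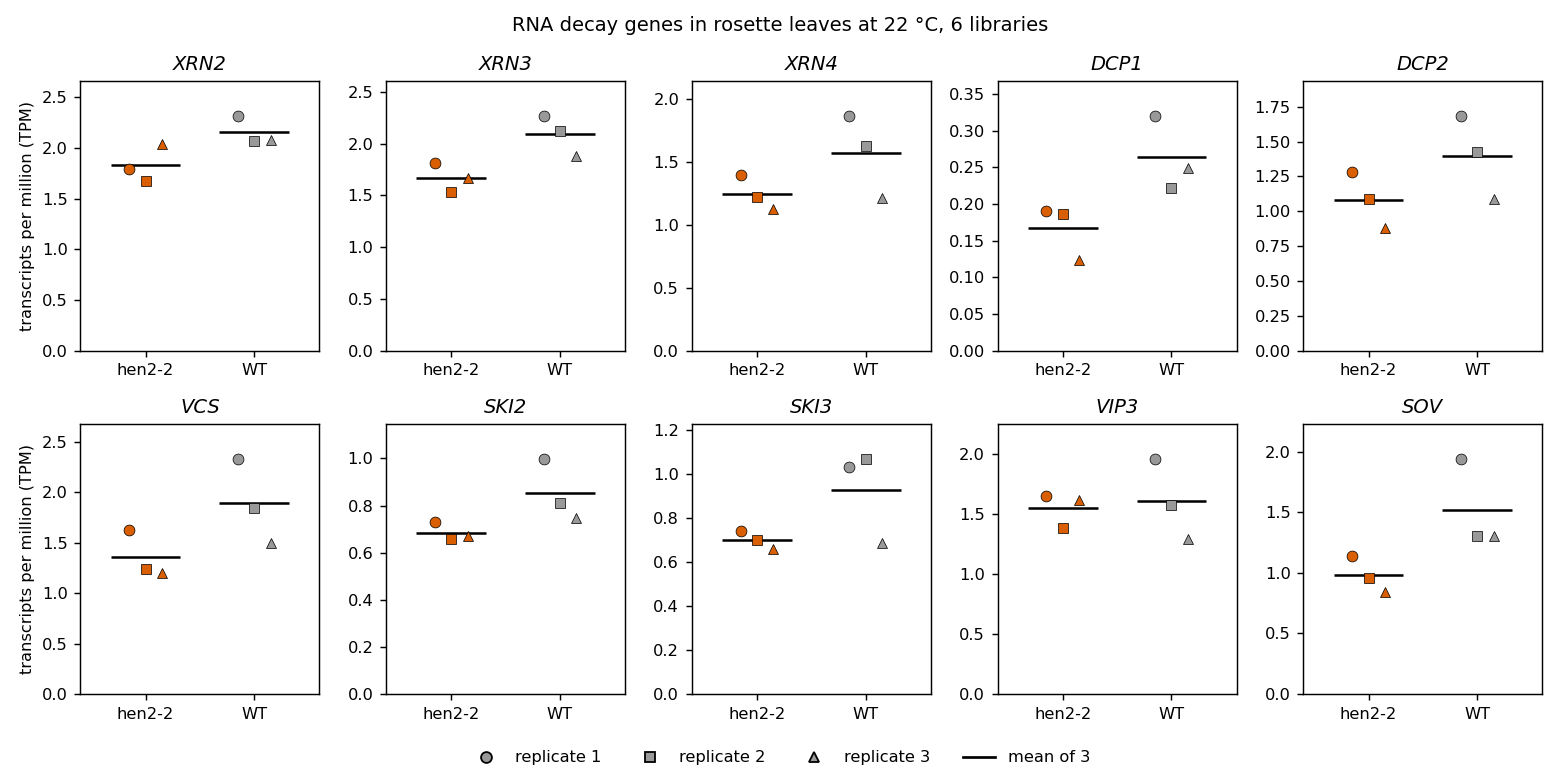
Levels of the 10 decay genes in the 6 libraries of the 22 °C experiment, in TPM (y axis, starting at 0) for *hen2-2* and WT (x axis), with symbols for the replicates and bars for the mean of 3. SOV lies at 0.846 to 1.14 TPM in *hen2-2* and at 1.31 to 1.94 TPM in WT, and the TPM of most genes is lower in *hen2-2*, as is the median of all genes.

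VCS was at 14.7, 12.5 and 12.3 CPM in *hen2-2*, against 16.6, 15.7 and 14.7 CPM in WT at 22 °C. The groups met almost at a common value, and the log2 ratio of -0.25 (standard error 0.13, edgeR adjusted p = 0.49) did not pass. VIP3 was at 3.58, 3.39 and 4.06 CPM in *hen2-2*, against 3.29, 3.16 and 2.98 CPM in WT, with a log2 ratio of 0.22 (standard error 0.13, edgeR adjusted p = 0.53). Without overlap, 1 member (VIP3) was higher, against 11.2% of all genes, and 2 (SOV and VCS) were lower, against 8.65%. XRN2 was at 12.1, 12.8 and 15.8 CPM in *hen2-2* and at 12.3, 13.1 and 15.2 CPM in WT. XRN3 was at 12.3, 11.7 and 13.0 CPM in *hen2-2* and at 12.1, 13.5 and 13.8 CPM in WT. Both genes overlapped in CPM, with log2 fold changes of 0.01 and -0.09. DCP2 was at 4.26, 3.97 and 3.22 CPM in *hen2-2* and at 4.28, 4.36 and 3.83 CPM in WT. SKI2 was at 6.20, 6.27 and 6.51 CPM in *hen2-2* and at 6.66, 6.45 and 6.84 CPM in WT. SKI3 was at 5.40, 5.74 and 5.51 CPM in *hen2-2* and at 5.91, 7.28 and 5.37 CPM in WT. The intervals of all 10 genes lay within a 2-fold change in either direction, which held for 65.4% of all genes, again without matching for level. Of the 10 genes, 4 had the same sign of change in *hen2-2* at 22 °C and at 20 °C.

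On the TPM scale with 0.1 added, the median of all genes was shifted by -0.19 (log2). Relative to that shift SOV was at -0.37, VCS at -0.25 and VIP3 at 0.16. Without this correction VIP3 had a value of -0.04, so its sign depended on the scale.

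The salmon files of the 22 °C experiment also gave separate levels for annotated transcripts, and VCS was the only one of the 6 genes with several measured transcripts whose shares did not overlap between *hen2-2* and WT. The annotation lists the transcripts AT3G13300.1, AT3G13300.2 and AT3G13300.3, on chromosome 3 between 4303822 and 4310275 of the plus strand (TAIR10.1). AT3G13300.1 contains a segment of 105 bases that AT3G13300.2 lacks, and is otherwise the same. It lies at positions 4304101 to 4304205, inside the coding sequence and after its first 16 bases, begins with GT and ends with AG as introns usually do, and its length equals 35 codons, so that the coding sequences of 4035 and 3930 bases share their frame. AT3G13300.3 contains the segment too, but differs elsewhere. The sequence below, from RefSeq, is shown because only reads on or across it can tell AT3G13300.1 and AT3G13300.2 apart. Capitals mark the segment and lower case the 20 bases on each side, which are joined in AT3G13300.2.
VCS, chr3:4304081-4304225, plus strand: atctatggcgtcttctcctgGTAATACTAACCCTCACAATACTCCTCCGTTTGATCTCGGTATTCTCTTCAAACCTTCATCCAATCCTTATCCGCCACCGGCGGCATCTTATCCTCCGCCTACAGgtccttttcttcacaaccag

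AT3G13300.1, which contains the segment, was at 0.429, 0.357 and 0.305 TPM in *hen2-2*, against 1.003, 1.16 and 0.9299 TPM in WT. AT3G13300.2, which lacks it, was at 1.11, 0.827 and 0.877 TPM in *hen2-2*, against 1.11, 0.581 and 0.522 TPM in WT. AT3G13300.3 was low in both, at 0.0914, 0.0530 and 0.0151 TPM in *hen2-2* and at 0.214, 0.109 and 0.05001 TPM in WT. The transcript with the segment was thus lower in every *hen2-2* library than in any WT library, while the transcript without it overlapped in TPM and lay apart in CPM. Counting all 18 member transcripts tested, 2 lay higher (AT3G13300.2 and that of VIP3) and 3 lower (AT3G13300.1, AT1G54490.1 of XRN4 and that of SOV), against 9.91% and 8.19% of all transcripts.

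The share of AT3G13300.1 in the VCS TPM was 26.9% ± 1.8 in *hen2-2* and 55.9% ± 11.1 in WT, and the share of AT3G13300.2 was 69.4% ± 3.4 in *hen2-2* and 38.0% ± 8.6 in WT (SD, n = 3). The shares did not overlap between genotypes, a difference of -29.0 and 31.4 percentage points. By an exact two-sided permutation test p was 0.10 for both, the smallest value that 3 against 3 libraries can give, and 0.70 after Benjamini-Hochberg adjustment over the 14 transcripts compared. Of 24329 transcripts of genes with several measured transcripts, 14.7% did not overlap, and the difference of AT3G13300.1 was larger than that of 95.3% of them. In counts, AT3G13300.1 had 393, 320 and 345 estimated reads in *hen2-2*, against 635, 652 and 610 in WT, although the *hen2-2* libraries were the deeper ones. Its log2 fold change was -1.31 (standard error 0.16) with an edgeR adjusted p of 0.061, just above the threshold, in a fit over 29634 transcripts that called 0.192% of them higher and 0.0337% lower (9.64% had an unadjusted p below 0.05). By DESeq2 the adjusted p was 2.74e-08, in a fit that called 1.86% higher and 1.09% lower. On log2 TPM with 1 or 0.1 added, limma gave adjusted p of 0.049 and 0.045, with 0.165% and 0.179% of transcripts called lower and 0.591% and 0.564% higher. With a library left out, the edgeR adjusted p lay between 0.11 and 0.30 and the log2 fold change between -1.42 and -1.20. A test of the use of transcripts within a gene (edgeR's diffSpliceDGE), chosen after the VCS transcripts were seen, gave VCS an adjusted p of 0.057 over 6491 genes, of which 1.85% were called; neither VCS transcript passed on its own (adjusted p of 0.32 and 0.62, 0.530% of transcripts called). AT3G13300.2 had a log2 ratio of 0.59 (standard error 0.22, edgeR adjusted p = 0.47). The estimates divide reads that fit several transcripts, and the standard errors and tests above take no separate account of the uncertainty of that division. The counts for 20 °C hold no transcripts, so the VCS transcripts were compared at 22 °C alone.

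**Figure D5:**
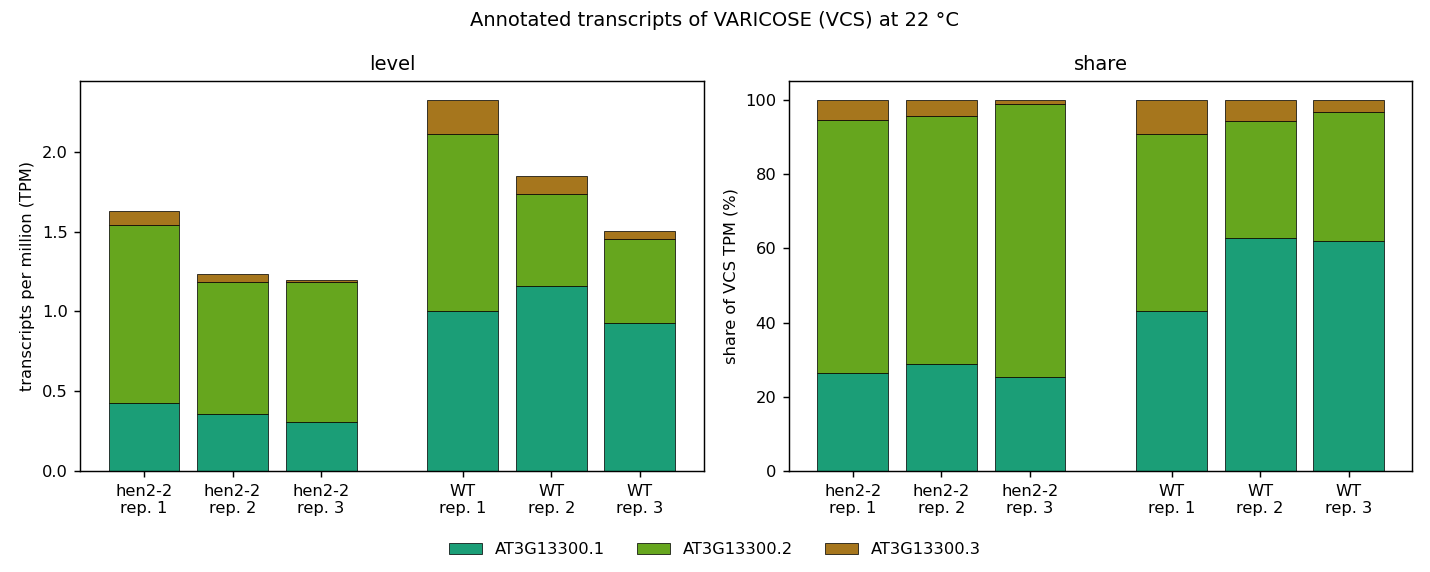
Level of the 3 annotated VCS transcripts in TPM (left, stacked from 0) and their share of the VCS TPM in % (right) in each of the 6 libraries at 22 °C, *hen2-2* left of WT. AT3G13300.1 makes up 25.5 to 28.9% in *hen2-2* and 43.1 to 62.6% in WT.

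Other genes with several measured transcripts kept a main transcript, and their shares overlapped between the genotypes. AT5G42540.1 of XRN2 made up 97.7% ± 1.2 in *hen2-2* and 96.4% ± 3.5 in WT, and AT1G54490.1 of XRN4 88.3% ± 6.6 in *hen2-2* and 94.0% ± 5.5 in WT. AT5G13570.1 of DCP2 made up 80.3% ± 18.8 in *hen2-2* and 88.2% ± 4.6 in WT. Within *hen2-2* its share ran from 62.4 to 100%. AT3G46960.1 of SKI2 made up 86.3% ± 11.1 in *hen2-2* and 86.1% ± 3.3 in WT, and AT1G76630.2 of SKI3 82.8% ± 5.4 in *hen2-2* and 80.2% ± 6.9 in WT (SD, n = 3 throughout). None of the 12 transcripts other than the pair of VCS that differed had an exact permutation p below 0.40.

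Partners of these genes were examined through lists of 59 genes in all, each of which passed the filter on low counts. In either single mutant relative to WT at 20 °C, 0 of the 59 were called by edgeR and 2 each had an unadjusted p below 0.05, against 5.27% of all genes in *hen2-2* and 7.09% in *se-2*. DESeq2 called 1 in each, where it called 1.16% of all genes higher and 0.173% lower in *hen2-2* and 0.979% and 0.699% in *se-2*. In the double mutant 1 was called by edgeR (1.71% of all genes higher and 0.668% lower) and 8 had an unadjusted p below 0.05 (14.6% of all genes). In *hen2-2* at 22 °C these numbers were 1 (1.10% higher and 0.251% lower) and 8 (13.1%). These counts are near the shares of all genes. The gene called in both was RRP46, a core subunit of the RNA exosome. It was at 3.55, 4.21 and 4.43 CPM in the double mutant, against 1.01, 1.54 and 1.11 CPM in WT, at a log2 ratio of 1.73 (standard error 0.27), and the edgeR adjusted p was 0.0079. The *hen2-2* libraries held 2.46, 3.40 and 3.19 CPM of RRP46, the *se-2* libraries 2.43, 4.41 and 2.60 CPM, with log2 ratios of 1.303 and 1.36 that missed the threshold (edgeR adjusted p of 0.099 and 0.077). With the replicate number as a block, the edgeR adjusted p at 20 °C was 0.010 in *hen2-2* and 0.0067 in *se-2*. By DESeq2 the adjusted p of RRP46 was 0.0033 in *hen2-2* and 0.0016 in *se-2*. At 22 °C, RRP46 was higher in *hen2-2* as well, at 3.02, 2.96 and 2.95 CPM against 1.52, 1.51 and 1.23 CPM in WT, at a log2 ratio of 1.07 (standard error 0.14, edgeR adjusted p = 0.022). The call at 22 °C held by DESeq2 (adjusted p = 5.97e-06) and with the replicate block (edgeR adjusted p = 0.0040). It also held without organelle genes, with RLE size factors and without the filter (edgeR adjusted p of 0.024, 0.026 and 0.028). This call was lost in 5 of 6 fits with a library left out (edgeR adjusted p of 0.061 to 0.14, against 0.037 without WT replicate 3). It was also lost on log2 TPM (limma adjusted p of 0.25 and 0.26). With 0.1 added to TPM the value was 0.68, on a scale where the median of all genes was -0.19.

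The 18 decapping activators and P-body partners held no gene called by edgeR in any comparison with all libraries (DESeq2 called LSM6A, of the LSM ring, at an adjusted p of 0.027 in the double mutant over WT and 0.028 over *hen2-2*), with a median log2 fold change in the double mutant over WT of 0.04 against 0.01 for all genes. Within this list the values in the double mutant ran from 0.89 for LSM1B, a subunit of the cytoplasmic LSM ring, to -0.63 for PAT1H1, a PAT1 homologue. The 9 deadenylation genes ran from 0.84 for PARN, a poly(A)-specific ribonuclease, to -0.42 for NOT1, the scaffold of the CCR4-NOT complex, with a median of 0.04 and no call. The 4 cofactors of the SKI complex and the cytoplasmic exosome had a median of -0.20 and ran from -0.0029 for SKI7/HBS1 to -0.87 for RST1 (standard error 0.29, edgeR adjusted p = 0.18). RST1, which together with RIPR links the exosome to the SKI complex, was at 4.92 CPM or below in each of the double mutant libraries and at 5.40 CPM or above in each WT library. In that comparison 9.82% of all genes were lower without overlap. The 5 partners of VIP3 in the PAF1 complex had a median of -0.06, from 0.18 for VIP5 to -0.30 for ELF7. FRY1, whose product removes an inhibitor of the XRN enzymes, was at -0.02, and DXO1, an enzyme that acts on unusual 5′ ends, at -0.37. The last list, of 17 genes, held exosome genes, the helicase gene MTR4 and the genes of the NEXT subunits ZCCHC8A, ZCCHC8B and RBM7. It had a median of -0.07. The lowest value was -1.08 for RRP43, which had 13 to 97 counts in the double mutant and WT libraries.

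The 4 genes of nonsense-mediated decay, which targets mRNAs with premature stop codons, had a median log2 fold change over WT of -0.24 in *hen2-2*, -0.13 in *se-2* and -0.40 in the double mutant at 20 °C, comparisons that share the WT libraries. The median was -0.33 in *hen2-2* at 22 °C, and that of all genes lay between -0.0018 and 0.02 in these comparisons. None was called by edgeR with all libraries and without the replicate block. In *hen2-2* at 22 °C, 3 of the 4 had an unadjusted edgeR p below 0.05 (13.1% of all genes did). At 20 °C these numbers were 0 in *hen2-2* (5.27%), 0 in *se-2* (7.09%) and 1 in the double mutant (14.6%). The value nearest to 0 in the double mutant was -0.18, for UPF3. The part of the lower leaf markers of the double mutant in the values of this list, RST1 and XRN3 was not tested. UPF1, the central helicase of this route, named after its values were seen, was at 12.3 ± 2.1 CPM in the double mutant and 18.2 ± 1.6 CPM in WT at 20 °C (SD, n = 3), at a log2 ratio of -0.57 (standard error 0.16, edgeR adjusted p = 0.11). DESeq2 called it lower there (adjusted p = 0.019), in a fit that called 2.24% of all genes lower and 3.62% higher. At 22 °C it was at 19.2 ± 0.8 CPM in *hen2-2* and 24.5 ± 2.5 CPM in WT (SD, n = 3), with a log2 ratio of -0.35 (standard error 0.13). The edgeR adjusted p was 0.32 without and 0.044 with the replicate block.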

How the data were processed

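RNA was extracted from rosette leaves, depleted of rRNA and made into directional libraries. For the 20 °C experiment the authors trimmed 12 bases, removed adapters and rRNA reads (Trimmomatic, Bowtie), aligned reads to TAIR10 with HISAT2 and deposited counts per gene from StringTie. For the 22 °C experiment they deposited estimated counts (expected counts) and TPM per transcript in the salmon layout, a tool named in the submitters' processing notes. Versions are not given in the sources used here.

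Estimated counts were summed per gene, leaving out 2 spike entries, and rounded. Libraries were grouped by their labels. edgeR 4.0.16 (R 4.3.3) was used with TMM scaling, its filter on low counts and two-sided quasi-likelihood tests over all genes, with all 12 libraries of 20 °C in a single fit and the 6 of 22 °C in another. Genes were called at a Benjamini-Hochberg adjusted p below 0.05, and 95% intervals used the fit's moderated degrees of freedom. Isoform shares are percentages of a gene's deposited TPM, for transcripts with at least 10 estimated reads in the 6 libraries, compared by exact permutation tests (Python 3.11.15). Positions and sequence come from the RefSeq TAIR10.1 annotation, whose nuclear chromosomes are those of TAIR10; all 19 transcripts of the genes had the same length there and in the deposited files. CPM counts organelle reads in the total. Intervals cover the spread between replicates; a count of 3, the limit that 0 counts allow, corresponds to 0.0192 to 0.0628 per M counts at 20 °C and 0.0284 to 0.0479 at 22 °C, and covers counting error only. The scripts were tested on simulated data.

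Genotypes were taken as paired by replicate number where the lowest correlation of same-numbered deviations was above 0.1. This held for *hen2-2* with WT (0.28 at 20 °C and 0.35 at 22 °C) and *se-2 hen2-2* with *se-2* (0.13). In the other comparisons the lowest, that of replicate 2, was 0.0065 to 0.012. Replicate 1 gave 0.38 to 0.46 there and replicate 3 gave 0.14 to 0.18, so these comparisons shared replicate differences in part. The members and the gene lists were chosen with earlier results of these data known. Named genes were the 10 members, HEN2, SE, VCR, list genes that were called, and the list genes with the highest and lowest value in the double mutant; UPF1 and others so marked were named after their values were seen. The values of 1 list gene are not reported here. Alternatives were DESeq2 1.42.0, RLE size factors, no filter, the replicate block, a term for libraries over 100 M counts, organelle genes left out, fits of the compared genotypes alone, limma 3.58.1 on log2 TPM with 1 or 0.1 added, and each library left out. Small RNA libraries were not used here.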

Additional observations from a re-analysis of the deposited data

How the results depend on the processing

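The count of decay genes called stayed at 0 under all alternatives run at 20 °C. At 22 °C it was 1 with the replicate block (SOV), and at the transcript level 1 each with DESeq2, limma on log2 TPM with 1 added and limma on log2 TPM with 0.1 added (AT3G13300.1 of VCS), and 0 when a library was left out and in the added test of transcript use. Over 1194 alternative fits of the fold changes of genes and transcripts, 4 passed the threshold, 0 of the 588 with a library left out among them, and 92 changed sign, none of which involved a call. Of the 88 fits with the replicate block, 1 passed. The isoform shares that did not overlap numbered 2 by TPM and by estimated counts, and 2 to 4 with a library left out (4 without *hen2-2* replicate 1 and 4 without WT replicate 1).

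Counts of called partner genes moved more. DESeq2 and the replicate block each called 1 in *hen2-2* and 1 in *se-2* over WT at 20 °C (RRP46), against 0. In *se-2 hen2-2* over WT, 1 was called (RRP46), 4 with DESeq2 (with RRP44A, LSM6A and UPF1), 4 with the replicate block (with RRP44A, RRP6L3 and UPF1), 2 with a term for libraries over 100 M counts (with RRP44A), and 1 to 2 with a library left out (2 without *se-2 hen2-2* replicate 1). In *se-2 hen2-2* over *hen2-2*, 0 were called, 2 with DESeq2 (RRP44A and LSM6A) and 0 to 1 with a library left out (RRP44A without *se-2 hen2-2* replicate 1). In *hen2-2* over WT at 22 °C, 1 was called, 3 with the replicate block (UPF1 among them), 0 with limma on log2 TPM with either addition, and 0 to 1 with a library left out (1 without *hen2-2* replicate 3, then CAF1A, and 1 without WT replicate 3, RRP46). The DESeq2 fits called 3.62% of all genes higher and 2.24% lower in *se-2 hen2-2* over WT, 1.5% and 1.2% over *hen2-2*, and 2.79% and 1.63% in *hen2-2* over WT at 22 °C. With the replicate block at 20 °C, the fit of *hen2-2* over WT called 0.838% higher and 0.0822% lower, that of *se-2* 1.06% and 0.977%, and that of *se-2 hen2-2* 4.46% and 3.58% (UPF1 adjusted p = 0.024 by edgeR); with the term for libraries over 100 M counts the last fit called 2.7% and 1.46%. These genes other than RRP46 were named after their values were seen, and the cause of these differences was not tested.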
